A study of Mus musculus with 9 samples.

Results

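The cytosolic ribosomal protein genes of adult mouse neural stem cells (NSCs) are described here. The members were the genes whose mouse symbol is Rpl or Rps followed by a number, with an optional a, l or x, together with Rplp0, Rplp1, Rplp2 and Rpsa, and whose mean level over the 9 libraries was at least 1 FPKM (fragments corrected for the length of the gene and the depth of the library). Of 83 genes with such a symbol, 79 were kept out of the 55704 rows of the deposited table: 47 of the large subunit and 32 of the small subunit. Rpl10l and Rpl39l were listed at 0 in every library, and Rpl3l (mean 0.296 FPKM) and Rpl32l (0.446 FPKM) lay just outside the limit, while Rps10 (1.90 FPKM), Rpl24 (2.25 FPKM) and Rps4l (4.42 FPKM) lay just inside it. Of the members, 78 were annotated as protein coding, and Rpl6l as a processed pseudogene.

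Bulk RNA-seq had been carried out on NSCs from the subventricular zone of C57BL/6 mice aged 8 to 9 weeks, with 2 female and 2 male mice pooled for an isolation and at least 3 passages in culture. The 3 bFGF/EGF-treated libraries were collected at day 0, after 16 to 18 h of adherent culture with 20 ng/mL bFGF and 20 ng/mL EGF. For the 3 bFGF/BMP4-treated libraries EGF was exchanged for 20 ng/mL BMP4, and for the 3 BMP4-treated libraries both growth factors were exchanged for 20 ng/mL BMP4, and both groups were collected at day 6. All 9 libraries therefore came from cells expanded in bFGF and EGF, and days in culture and change of medium cannot be told apart in any comparison with the bFGF/EGF-treated NSCs. The labels call the 3 samples of a group biological replicates without saying whether they came from separate isolations, so the p-values measure the spread between these samples, which may be partly technical.

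The libraries held 15892854 to 17419822 fragments on genes. All 9 listed NSC markers had a mean of at least 1 FPKM, with summed levels of 1635 to 1757 FPKM with bFGF/EGF, 602 to 677 FPKM with bFGF/BMP4 and 1433 to 1878 FPKM with BMP4. Nes, which encodes the intermediate filament nestin, stood at 145 to 157 FPKM at day 0, at 2.96 to 3.94 FPKM with bFGF/BMP4 and at 10.7 to 20.7 FPKM with BMP4. The NSC markers did not all go this way. By the limma test given below, 3 of the 9 were higher and 5 lower with bFGF/BMP4 than with bFGF/EGF. With BMP4, 5 were higher and 1 lower. Of all tested genes, 25% and 29.6% were higher and 23.6% and 25.3% lower in these comparisons. None of the 8 microglial and none of the 8 vascular markers reached a mean of 1 FPKM (Itgam, C1qa and Cldn5 were at 0). The summed level of 8 astrocyte markers was 261 to 310 FPKM in the bFGF/EGF group, 825 to 886 FPKM in the bFGF/BMP4 group and 3799 to 4696 FPKM in the BMP4 group. In the BMP4 group this sum was mostly Gfap (means of 0.0926, 19.4 and 2566 FPKM in this order of groups). By limma, 7 of the 8 were higher and 1 lower in each comparison with bFGF/EGF. Aldh1l1 had lower means in both (135, 24.2 and 58.1 FPKM). With BMP4 against bFGF/BMP4, 5 were higher and 1 lower (12.2% and 8.89% of all tested genes). There the means of S100b (40.1 against 55.1 FPKM) and Slc1a2 (65.5 against 175 FPKM) were lower. The summed level of 8 oligodendrocyte lineage markers, mostly Olig1 and Olig2, was 1564 to 2264 FPKM with bFGF/EGF, 1320 to 1802 FPKM with bFGF/BMP4 and 243 to 444 FPKM with BMP4. Of 8 neuronal markers 6 reached a mean of 1 FPKM, with sums of 77.9 to 93.7, 55.9 to 62.0 and 158 to 232 FPKM, and of 6 ependymal markers 2 did, with sums of 7.22 to 12.03, 10.8 to 11.8 and 56.7 to 66.6 FPKM (Tmem212 was at 0). Their part in the results that follow was not tested.

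Ribosomal proteins, assembled with ribosomal RNA in the nucleolus into a small subunit that reads the mRNA and a large subunit that joins amino acids, are mostly needed in equal numbers, except for the stalk proteins Rplp1 and Rplp2, of which a ribosome carries more, and their genes are among the most strongly expressed in growing cells. Their mRNAs begin with a 5′ terminal oligopyrimidine (TOP) tract, a C followed by a run of pyrimidines, through which mTORC1 and Larp1 control their translation and stability. In the neural stem cell lineage, quiescent cells are known for low and activated cells for high ribosomal and protein synthesis activity, and induced quiescence in culture is one model of that difference.

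The annotated transcription starts of 10 members are shown because a TOP tract, where there is one, is expected at this place. Promoter entries from RefSeq on GRCm38.p6 were matched by symbol for 57 of the 79 members. Each window runs 5′ to 3′ on the strand of the gene, from 10 bases before the annotated start through the first 20 bases of the transcript, and capitals mark every C followed by at least 4 pyrimidines that begins within 10 bases of the start. The windows lie at chr4:86857348-86857377 (minus strand) for Rps6, chr17:33955646-33955675 (minus) for Rps18, chr17:27635225-27635254 (minus) for Rps10, chr11:114668570-114668599 (plus) for Rpl38, chr3:90213629-90213658 (minus) for Rps27, chr2:32961702-32961731 (plus) for Rpl12, chr7:45128726-45128755 (minus) for Rpl13a, chr9:120127756-120127785 (plus) for Rpsa, chr4:152325716-152325745 (plus) for Rpl22 and chr10:128549149-128549178 (minus) for Rpl41.
Rps6: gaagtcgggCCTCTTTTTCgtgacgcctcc
Rps18: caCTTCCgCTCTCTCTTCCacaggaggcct
Rps10: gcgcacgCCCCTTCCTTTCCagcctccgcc
Rpl38: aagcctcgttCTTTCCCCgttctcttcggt
Rps27: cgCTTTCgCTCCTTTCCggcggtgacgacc
Rpl12: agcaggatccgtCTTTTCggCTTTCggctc
Rpl13a: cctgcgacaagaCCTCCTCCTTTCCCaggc
Rpsa: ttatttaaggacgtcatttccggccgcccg
Rpl22: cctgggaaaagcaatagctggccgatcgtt
Rpl41: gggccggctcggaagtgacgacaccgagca

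Such a tract began within 10 bases of the annotated start in 35 of the 57 members (61.4%), against 34.4% of all 27025 symbols in the promoter table. A C followed by at least 4 pyrimidines stood exactly at the start in 13 members (22.8%), against 3.01% of all symbols. Cases where the tract had already begun upstream were counted too. In the windows shown, the tract of Rpl38 began at the start, and that of Rps6 had begun before it. In the windows shown, Rpsa, Rpl22 and Rpl41 held none, but Rpl22 counts among the 35 because another of its RefSeq entries, not shown, holds such a tract. The hexamer CCGGAA, the core recognised by ETS factors such as Gabpa, was found on either strand of the whole entry (250 bases before the start and 50 bases after it) in 32 members (56.1%, against 16.7% of all symbols), and AAGATGG, the core of the Yy1 motif, in 9 (15.8%, against 7.28%). TATAAA at 20 to 40 bases before the start was found in 0 of 57, against 2.41% of all symbols. These are matches of letters in a window, and no binding was measured. No promoter sequence was used for 22 members, among them Rpl3, Rpl7, Rpl17, Rpl21, Rpl36, Rplp1, Rps4l and Rps27a.

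The members took up 7.77%, 8.85% and 7.18% of the summed FPKM in the bFGF/EGF-treated libraries, 2.79%, 2.66% and 2.77% in the bFGF/BMP4-treated libraries and 1.96%, 2.70% and 2.21% in the BMP4-treated libraries. All 3 libraries with EGF lay above all 6 others, and the ranges of the 2 groups with BMP4 overlapped. The group means were 7.93% ± 0.848, 2.74% ± 0.0692 and 2.29% ± 0.378 (SD, n = 3). As a share of fragments, which is not corrected for gene length, the means were 3.83% ± 0.502, 1.20% ± 0.0202 and 1.07% ± 0.242 (SD, n = 3). Genes of the mitochondrial genome took a mean of 5.91% of the summed FPKM at day 0, 10.4% with bFGF/BMP4 and 10.2% with BMP4, and with them left out of the total the share of the members was 8.42%, 3.06% and 2.55%. FPKM are relative to the library, so fewer cells of a type and less RNA per cell cannot be told apart in these bulk samples, and neither can a change in the RNA content of the cells as a whole.

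**Figure D1:**
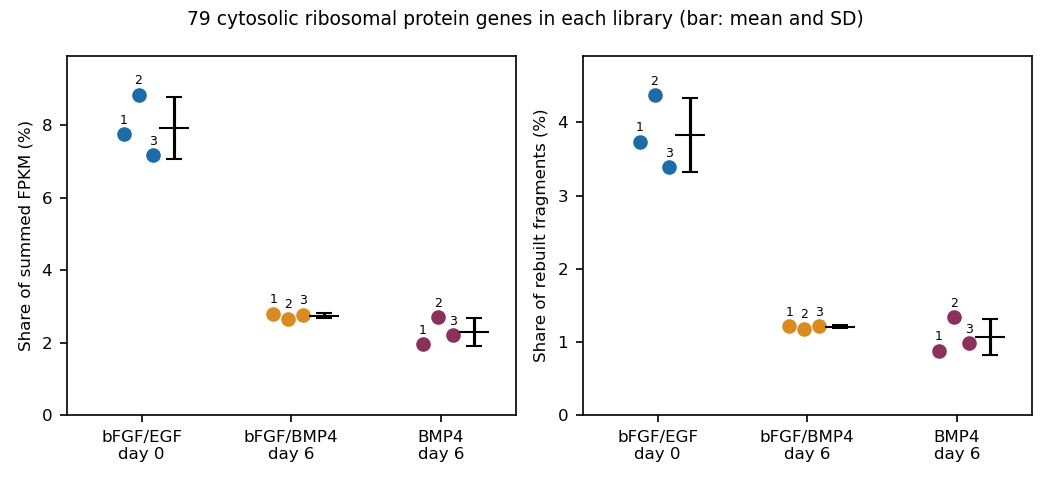
Share of the 79 cytosolic ribosomal protein genes in each library, as a percentage of summed FPKM (left) and of rebuilt fragments (right), with points numbered by replicate and a bar for the mean and SD of each group (n = 3). The 3 bFGF/EGF-treated libraries lie at 7.18% to 8.85% of the summed FPKM, above the 6 other libraries at 1.96% to 2.79%.

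In several libraries most members deviated from their group mean in the same direction, though not by the same factor. In bFGF/EGF replicate 2, 75 of the 79 members lay above their group mean (median deviation 0.27 on the log2 scale), and in bFGF/EGF replicate 3 only 2 did (median −0.26). In BMP4 replicate 2, 78 members lay above their group mean (median 0.39), against 2 in BMP4 replicate 1 (median −0.28) and 9 in BMP4 replicate 3 (median −0.12). Over all tested genes the same median deviations were between −0.02 and 0.02. The 3 bFGF/BMP4-treated libraries were closer to each other, with 39, 28 and 53 members above the mean. Counts, medians and shares of the members are also given with libraries left out, but fold changes of single members only in some cases.

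Between genes, levels per length ran from 1.90 FPKM for Rps10 to 1016 FPKM for Rplp1 (means over the 9 libraries), with a median of 127 FPKM, 118 FPKM in the large and 143 FPKM in the small subunit. The highest levels in the large subunit were those of the stalk proteins Rplp1 (1016 FPKM) and Rplp0 (463 FPKM) and of Rpl36 (412 FPKM), and in the small subunit those of Rps15 (442 FPKM), Rps2 (328 FPKM) and Rps4x (275 FPKM). The lowest were Rpl24, Rpl13a (11.3 FPKM) and Rpl21 (14.1 FPKM) in the large subunit and Rps10, Rps4l and Rps28 (31.3 FPKM) in the small subunit. Near-identical gene copies stand beside this spread of levels. For 69 of the 79 members at least 80% of the coding sequence was found elsewhere in the genome at 95% identity or more, in 49 of them at 99% or more, and up to 55 times (Rpl21). How fragments that match several places were counted is not given in the sources used here, so the levels of single members are uncertain. Behind these levels stood at least 1000 fragments in every library for 57 members, while 4 members fell under 100 fragments in some library: Rpl24 (18 to 109), Rps4l (20 to 193), Rps10 (40 to 120) and Rpl13a (94 to 898).

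**Figure D2:**
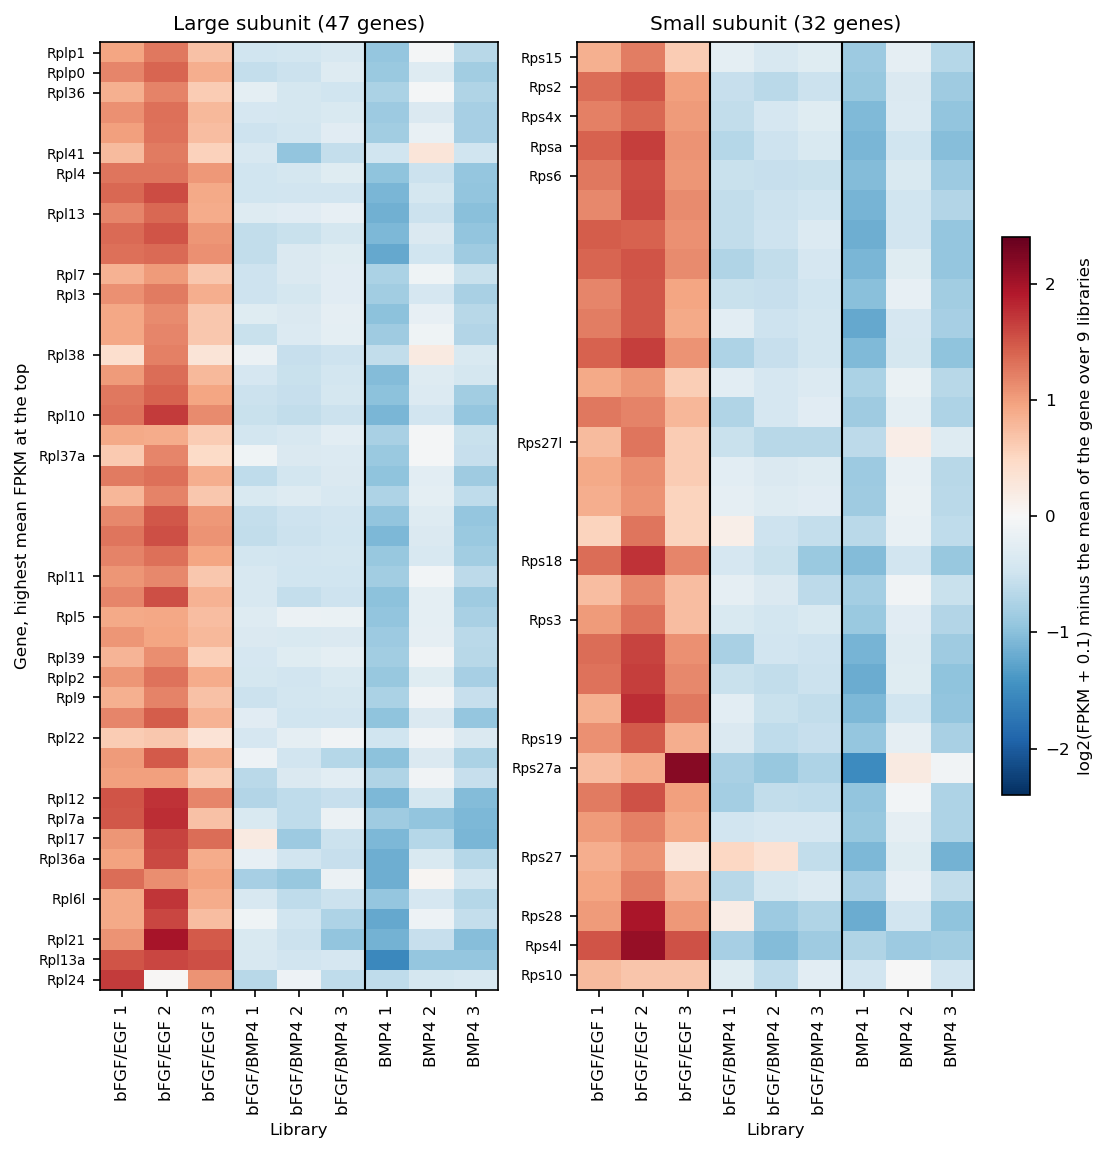
Level of each member in each library, as log2(FPKM + 0.1) minus the mean of the gene over the 9 libraries, for 47 large-subunit genes (left) and 32 small-subunit genes (right), ordered by mean FPKM, with labels for genes that the text names. The 3 bFGF/EGF columns are red for nearly all genes and the 6 other columns blue for nearly all, with BMP4 replicate 2 paler than the other BMP4 libraries and with Rps27, Rpl24 and Rps27a departing from the pattern in single libraries.

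The first comparison, bFGF/BMP4-treated against bFGF/EGF-treated NSCs, asks how the genes differ once EGF is exchanged for BMP4 while bFGF is kept. The ribosomal protein genes fell together: 78 of the 79 were lower and 0 were higher by limma (Benjamini-Hochberg adjusted p of at most 0.05 over 20207 tested genes, log2(FPKM + 0.1)), where 23.6% of all tested genes were lower and 25% higher. In 78 members the groups did not overlap, with bFGF/BMP4 lower, against 27.5% of all tested genes, and in 0 was bFGF/BMP4 higher without overlap, against 30.2%. In 77 members the fall was called and at least 2-fold, against 14.1% of all tested genes. The median log2 fold change was −1.55, or 2.92-fold lower, with a range from −2.61 (Rps4l) to −0.66 (Rps27), and the median of all tested genes was 0.06. Large-subunit genes had a median of −1.50 and small-subunit genes of −1.69, and the ratio of their summed FPKM, large to small, was 1.560 to 1.601 in libraries with EGF and 1.711 to 1.783 in libraries with bFGF and BMP4.

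The second comparison, BMP4-treated against bFGF/EGF-treated NSCs, shares the bFGF/EGF-treated libraries with the first, so the 2 results are not independent of each other. All 79 members were lower and none was higher by limma (background 25.3% of all tested genes lower and 29.6% higher), and in all 79 the groups did not overlap, with BMP4 lower (27.8% of all tested genes, with another 32.6% higher). The median log2 fold change was −1.78, or 3.43-fold lower, from −2.68 (Rpl13a) to −0.83 (Rpl22), with 0.10 as the median of all tested genes. Large-subunit genes had a median of −1.74 and small-subunit genes of −1.86, and the large to small ratio was 1.756 to 1.800. Without bFGF/EGF replicate 3 and BMP4 replicate 2, a choice made after the data were seen, 77 and 78 members were lower in the first and second comparison, with medians of −1.68 and −2.12. Within their groups, the members stood lowest in that bFGF/EGF library and highest in that BMP4 library. Leaving both out therefore widens the median fall by construction. No share of all tested genes was computed for these fits.

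**Figure D3:**
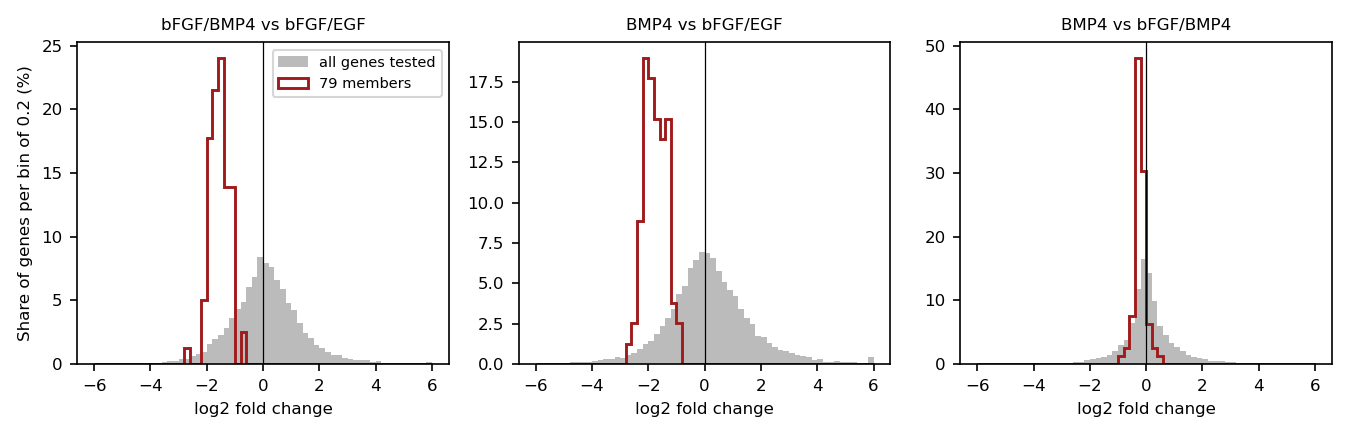
Distribution of log2 fold changes (x axis, bins of 0.2, values beyond 6 in the end bins) as a percentage of genes (y axis) for all 20207 tested genes (grey) and the 79 members (red line) in each of the 3 comparisons. The members lie to the left of 0 in both comparisons with bFGF/EGF-treated NSCs, with medians of −1.55 and −1.78, and around −0.22 in BMP4- against bFGF/BMP4-treated NSCs.

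The acidic stalk of the large subunit, which recruits the translation factors that hydrolyse GTP, is built from Rplp0, Rplp1 and Rplp2. Rplp0 stood at 873, 1017 and 702 FPKM with bFGF/EGF, at 259, 270 and 312 FPKM with bFGF/BMP4 and at 207, 311 and 215 FPKM with BMP4. Its lowest library with EGF was thus above all others, and the 2 groups with BMP4 overlapped. The log2 fold changes against bFGF/EGF were −1.61 (SE 0.21, limma adjusted p = 1.36e-04) and −1.83 (SE 0.21, adjusted p = 4.36e-05) for bFGF/BMP4 and BMP4. Rplp1, the most abundant member, stood at 1715, 2136 and 1445 FPKM, at 639, 650 and 677 FPKM and at 467, 852 and 560 FPKM. The log2 fold changes of Rplp1 were −1.41 and −1.52, and those of Rplp2 were −1.50 and −1.75. The 3 stalk genes were lower without overlap in both groups. BMP4 replicate 2 was the highest BMP4-treated library for each of them.

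Among the small-subunit proteins, Rps6 is the substrate of the S6 kinases downstream of mTORC1, and Rpsa is also known as a laminin receptor precursor. Rps6 stood at 437, 534 and 378 FPKM with bFGF/EGF, at 124, 124 and 125 FPKM with bFGF/BMP4 and at 87.5, 141 and 99.01 FPKM with BMP4. Rpsa stood at 517, 615 and 411 FPKM, at 120, 137 and 150 FPKM and at 90.1, 139 and 95.5 FPKM. Both genes were separated from bFGF/EGF in every library of the other groups. The log2 fold changes were −1.84 (SE 0.19) and −2.06 (SE 0.19) for Rps6 and −1.91 (SE 0.21) and −2.26 (SE 0.21) for Rpsa. Rps3, which lies at the mRNA entry site, changed by −1.41 and −1.65, and Rps19, the gene first linked to Diamond-Blackfan anaemia, by −1.65 and −1.78, near the median member. Rps2, also of the mRNA entry site, changed by −1.85 and −1.98, Rps15, of the head of the small subunit, by −1.20 and −1.49, and Rps4x, encoded on the X chromosome, by −1.63 and −1.98.

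Rps27a encodes a ribosomal protein fused to ubiquitin, and its libraries varied more than those of other members. It stood at 71.0, 79.2 and 193 FPKM with bFGF/EGF, at 24.7, 22.5 and 25.2 FPKM with bFGF/BMP4 and at 14.8, 49.2 and 40.2 FPKM with BMP4. The groups did not overlap with bFGF/EGF, but bFGF/EGF replicate 3, low for 77 of the members, was the highest library for Rps27a. The log2 fold changes were −2.09 (SE 0.46, limma adjusted p = 0.00382) and −1.73 (SE 0.46, adjusted p = 0.00906).

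Rpl5 and Rpl11 form a particle with 5S ribosomal RNA that binds Mdm2 when it is not built into ribosomes. Rpl5 stood at 175, 175 and 156 FPKM with bFGF/EGF, at 74.9, 83.7 and 82.5 FPKM with bFGF/BMP4 and at 47.8, 79.003 and 54.2 FPKM with BMP4. Rpl11 stood at 203, 218 and 154 FPKM, at 74.9, 70.2 and 70.3 FPKM and at 55.0, 93.8 and 62.8 FPKM. Both genes were lower in every library with BMP4. Rpl5 had one of the 5 smallest falls in bFGF/BMP4-treated NSCs (−1.07, SE 0.17) and fell by 1.51 in BMP4-treated NSCs, and Rpl11 changed by −1.40 and −1.46. Trp53 was lower in both (−1.54 and −1.54, adjusted p = 5.52e-06 and 3.66e-06), and no other of the 4 genes listed for the Mdm2 and p53 pathway passed the test against bFGF/EGF.

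Among other genes of the large subunit, Rpl3 changed by −1.47 (SE 0.16) in bFGF/BMP4- and −1.74 (SE 0.16) in BMP4-treated NSCs, and Rpl10, which joins the subunit late, by −1.91 (SE 0.19) and −2.20 (SE 0.19). Rpl39, of the tunnel wall, changed by −1.15 and −1.37, Rpl36a by −1.55 and −1.89, Rpl7 by −1.21 and −1.30, and Rpl36, among the most abundant large-subunit genes, by −1.27 and −1.40. All of these passed the test. Rpl24 rested on few fragments, stood at 6.22, 1.90 and 4.07 FPKM, at 1.15, 1.71 and 1.19 FPKM and at 1.20, 1.38 and 1.41 FPKM, and changed by −1.39 and −1.40 (SE 0.36). The groups did not overlap for Rpl24 either, although bFGF/EGF replicate 2 was close to the highest bFGF/BMP4-treated library.

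The members did not all fall by the same amount. The 5 largest falls in bFGF/BMP4-treated NSCs were those of Rps4l (−2.61, SE 0.18), Rpl21 (−2.13, SE 0.25), Rpl12 (−2.10, SE 0.19), Rps27a and Rps18 (−2.03, SE 0.21). In BMP4-treated NSCs they were those of Rpl13a (−2.68, SE 0.17), Rps4l (−2.51, SE 0.18), Rpl21 (−2.41, SE 0.25), Rpl12 (−2.32, SE 0.19) and Rpl17 (−2.29, SE 0.26). Rows named as pseudogenes of Rpl21 summed to 187 to 230 FPKM with bFGF/EGF, against 21.7 to 40.4 FPKM for Rpl21. Those of Rpl17 summed to 429 to 649 FPKM, against 82.9 to 122 FPKM. Rps18 and Rps27a had such rows too, and Rps4l, Rpl12 and Rpl13a had none above 0. Falls with these rows added were not computed. The places of Rpl21, Rpl17, Rps18 and Rps27a among the largest falls are therefore uncertain. Rpl12 lies at the base of the stalk, Rpl17 at the tunnel exit and Rps18 in the head of the small subunit. Rpl12 stood at 138, 163 and 110 FPKM with bFGF/EGF, at 30.01, 31.9 and 33.0 FPKM with bFGF/BMP4 and at 23.0, 36.4 and 23.8 FPKM with BMP4. Rpl13a, which is also known outside the ribosome for silencing inflammatory mRNAs, stood at 23.4, 24.9 and 24.04 FPKM, at 6.21, 5.89 and 6.14 FPKM and at 2.74, 4.26 and 4.27 FPKM. The 3 groups of Rpl13a did not overlap at all.

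The 5 smallest falls in bFGF/BMP4-treated NSCs were those of Rps27 (−0.66, SE 0.33, not called), Rpl22 (−0.76, SE 0.15), Rpl37a (−1.01, SE 0.23), Rpl38 (−1.03, SE 0.27) and Rpl5. In BMP4-treated NSCs they were those of Rpl22 (−0.83, SE 0.15), Rpl38 (−0.89, SE 0.27), Rps10 (−1.01, SE 0.19), Rpl41 (−1.07, SE 0.26) and Rps27l (−1.14, SE 0.22). Rpl22, a protein that many cells can lose because a paralog stands in for it, stood at 104, 108 and 86.0 FPKM with bFGF/EGF, at 51.9, 59.2 and 64.7 FPKM with bFGF/BMP4 and at 49.5, 64.6 and 53.9 FPKM with BMP4. Rpl38, known for its role in the translation of Hox mRNAs, stood at 189, 333 and 178 FPKM, at 131, 97.9 and 101 FPKM and at 94.9, 166 and 112 FPKM. The groups of both genes were separate, but for Rpl38 only narrowly: its highest BMP4-treated library was at 166 and its lowest bFGF/EGF-treated library at 178 FPKM. The call of Rpl38 in BMP4-treated NSCs (adjusted p = 0.0195) was lost without bFGF/EGF replicate 2 (0.0668), BMP4 replicate 1 (0.0881) or BMP4 replicate 3 (0.0719), and with only the compared groups in the fit (0.0605).

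The members were also measured against the median member of each library, an alternative chosen after the data were seen. By this construction the members divide to both sides of 0, and most other genes lie above it. Most tested genes were then called, so the adjustment over all of them corrects the members little. The counts describe the spread among members and are not a controlled test among them. In bFGF/BMP4- against bFGF/EGF-treated NSCs, 13 members were higher and 20 lower than the median member, where 71.8% of all tested genes were higher and 2.73% lower by the same measure. Rpl22 was higher by 0.72 on the log2 scale (limma adjusted p = 6.48e-04) and Rps27 by 0.82 (adjusted p = 0.0173), and Rps4l fell by 1.13, Rpl21 fell by 0.65 and Rpl12 fell by 0.61 relative to the median member. In BMP4- against bFGF/EGF-treated NSCs, 15 were higher and 27 lower (background 76.2% and 3.37%), among them Rpl22 (0.86, adjusted p = 1.51e-04), Rpl38 (0.80), Rps10 (0.68) and Rpl13a (−0.99).

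**Figure D4:**
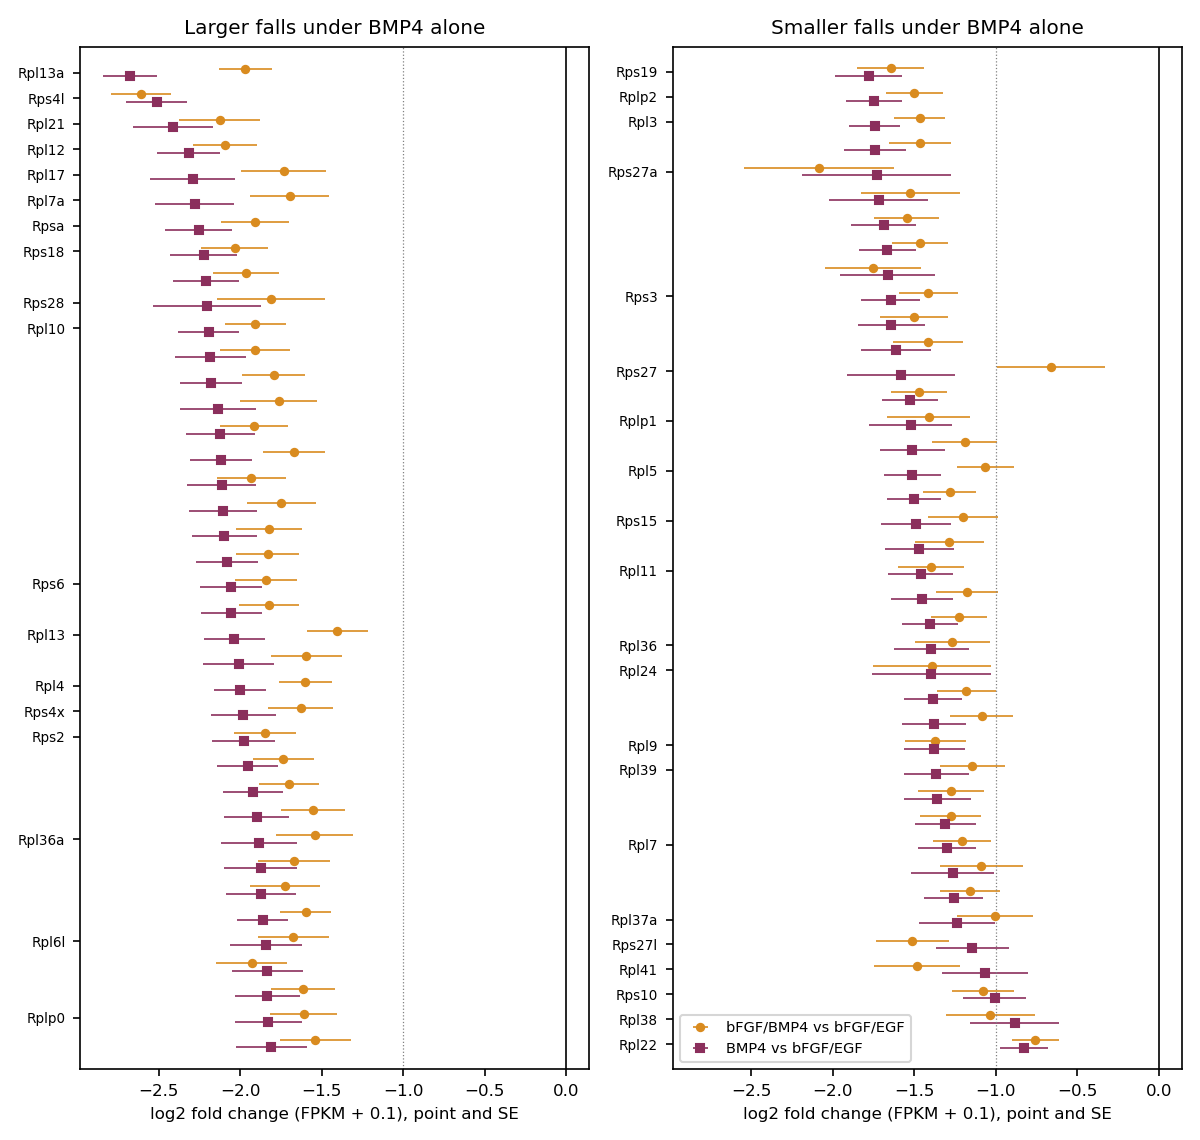
Log2 fold change (x axis, FPKM + 0.1, point and SE) of each of the 79 members in bFGF/BMP4- (circles) and BMP4- (squares) against bFGF/EGF-treated NSCs, ordered by the fall in BMP4-treated NSCs, with labels for genes that the text names. Every point lies to the left of 0, and most lie beyond the dotted line at −1, with Rps27 (−0.66) in bFGF/BMP4- and Rpl22 (−0.83) in BMP4-treated NSCs as the smallest falls.

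Rps27 was the exception to the first comparison. It stood at 77.2, 88.5 and 51.2 FPKM with bFGF/EGF, at 59.5, 53.6 and 27.7 FPKM with bFGF/BMP4 and at 19.7, 34.3 and 19.1 FPKM with BMP4. The lowest bFGF/EGF-treated library lay below 2 of the bFGF/BMP4-treated libraries, and the adjusted p was 0.128 (limma), while the fall of 1.58 in BMP4-treated NSCs was called (adjusted p = 0.00242). Rps27rt, a retrotransposed copy of Rps27 that lies outside the name rule, stood at 280, 531 and 338 FPKM, at 24.5, 54.4 and 125 FPKM and at 87.6, 178 and 129 FPKM. Within the bFGF/BMP4-treated libraries the 2 copies went opposite ways: the library with the highest Rps27 had the lowest Rps27rt. Summed, Rps27 and Rps27rt gave 357, 620 and 389 FPKM, 84.0, 108 and 152 FPKM and 107, 212 and 148 FPKM. The sum changed by −1.99 and −1.56 without overlap with bFGF/EGF (exact permutation test, two-sided, p = 0.1 each, the smallest that 3 against 3 allows).

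Rps10 is another member whose copies hold most of the signal. It stood at 3.05, 2.87 and 2.87 FPKM, at 1.43, 1.13 and 1.47 FPKM and at 1.25, 1.76 and 1.26 FPKM, while with its pseudogene Rps10-ps2 the sum was 315, 406 and 316 FPKM, 103, 120 and 103 FPKM and 81.7, 120 and 88.7 FPKM. The sum changed by −1.66 and −1.85, and Rps10 alone by −1.08 and −1.01. The 321 rows of the table named as ribosomal protein pseudogenes, with 75 at a mean of 1 FPKM or more, summed to 3266 ± 502 FPKM at day 0, 1151 ± 82.5 FPKM with bFGF/BMP4 and 1000 ± 175 FPKM with BMP4 (SD, n = 3). The median log2 fold changes were −1.48 and −1.51 in the 10 members without a near-identical copy, −1.55 and −1.81 in the 55 with 1 to 10 copies, and −1.72 and −2.05 in the 14 with more, for bFGF/BMP4 and BMP4 against bFGF/EGF.

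The members also share features that the rule did not use. They lay on 19 chromosomes, with 14 on chromosome 7 and 7 each on chromosomes 9 and 11. Within 29 members 58 snoRNA genes were annotated, and these host genes had median log2 fold changes of −1.75 and −2.06, against −1.47 and −1.60 in the 50 others. A C at the start followed by at least 4 pyrimidines went with medians of −1.50 and −1.72, against −1.55 and −1.82 in the other members with an entry. Across the 79 genes, which are not independent replicates, Pearson's r of the log2 fold change with log2 mean FPKM was 0.15 and 0.09, and with the number of copies −0.26 and −0.32.

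Several members have a paralog, and the ratio of paralog to member within a library does not depend on the scaling of that library. Of 8 pairs, 6 could be followed, because Rpl39l and Rpl10l were listed at 0. Over 18 exact permutation tests (two-sided) the smallest p that 3 against 3 allows is 0.1, which is 0.18 after adjustment, so no pair could pass the threshold. The log2 ratio of Rpl22l1 to Rpl22 was −1.83 ± 0.155 at day 0, −2.67 ± 0.187 with bFGF/BMP4 and −2.53 ± 0.225 with BMP4 (SD, n = 3), so that the paralog fell more than Rpl22, by 0.83 and 0.69, without overlap. The ratio of Rpl7l1 to Rpl7 was higher than with bFGF/EGF by 0.43 and 0.34, also without overlap. The ratio of Rps4l to Rps4x was 0.98 lower in bFGF/BMP4- and 0.53 lower in BMP4-treated NSCs, with no overlap in the first case and overlap in the second, and with a pseudocount of 1 in place of 0.1 these differences were −0.48 and −0.066.

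Rps27l, a paralog known as a p53 target, stood at 249, 359 and 223 FPKM with bFGF/EGF, at 101, 91.9 and 92.6 FPKM with bFGF/BMP4 and at 95.0, 164 and 118 FPKM with BMP4. It changed by −1.51 and −1.14 (limma adjusted p = 3.39e-04 and 0.00159). Its log2 ratio to Rps27 was 1.94 ± 0.227, 1.09 ± 0.560 and 2.38 ± 0.208 (SD, n = 3). The ratio was 1.29 higher in BMP4- than in bFGF/BMP4-treated NSCs without overlap (exact permutation p = 0.1, adjusted 0.18). This difference rests on counting Rps27 without Rps27rt. Their sum was 0.43 higher in BMP4- than in bFGF/BMP4-treated NSCs, with overlap (exact permutation p = 0.5). The ratio of Rps27l to that sum was not computed. Rpl36al and Rpl3l stood at no more than 1.59 and 0.554 FPKM in any library. Their ratios to Rpl36a (0.90 and 1.53 higher than with bFGF/EGF, the first with overlap) and Rpl3 (3.56 and 3.91 higher) depend on the pseudocount.

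The third comparison, BMP4- against bFGF/BMP4-treated NSCs at the same day, asks what bFGF adds to BMP4. Few members passed the test: 2 of 79 were lower and 0 higher by limma, against 8.89% of all tested genes lower and 12.2% higher. At an unadjusted p under 0.05, 7 were lower and 0 higher, and the share of all tested genes at that threshold was not computed. The median log2 fold change was −0.22, with 71 of 79 below 0, where the median of all tested genes was 0. None of the members was called with a fold of at least 2, against 5.14% of all tested genes lower and 8.41% higher. The called genes were Rpl13a (−0.71, SE 0.17, adjusted p = 0.0122) and Rpl13 (−0.63, SE 0.19, adjusted p = 0.0379), both of the large subunit. Rpl13 stood at 396, 457 and 327 FPKM with bFGF/EGF, at 142, 146 and 154 FPKM with bFGF/BMP4 and at 79.006, 124 and 87.3 FPKM with BMP4, so all 3 BMP4-treated libraries lay below all bFGF/BMP4-treated libraries. Besides these genes, only Rpl7a (−0.58) and Rpl4 (−0.40) did not overlap, which makes 4 of 79, against 18.3% of all tested genes. The smallest differences were those of Rpl24 and Rpl9 (log2 fold changes of −0.0015 and −0.0060).

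The number of members called lower in this comparison depended on the scaling and on single libraries, among them BMP4 replicate 2, in which 78 members stood above the group mean. The number was 12 without BMP4 replicate 2 and 31 without BMP4 replicate 2 and bFGF/EGF replicate 3, with a median of −0.42 in each of those fits. The lower median is given by construction, because the BMP4-treated library with the highest member levels is left out. The number was 1, Rpl13a, without a filter and without bFGF/EGF replicate 1, bFGF/BMP4 replicate 1 or 2, or BMP4 replicate 1 or 3, and the median was −0.08 without BMP4 replicate 1. It was 10 on the TPM scale, 11 with libraries scaled to genes other than the members and mitochondrial genes, and 21 with quantile normalization. Of all tested genes, 10.1%, 10.4% and 11.1% were lower under these scalings, and no such share was computed for the fits without a library. Rpl13a was lower in every refit, those with a library left out included (highest adjusted p = 0.0493). Rpl13 lost its call in 8 of them (adjusted p from 0.0585 to 0.141): without a filter, with only the compared groups, and without bFGF/EGF replicate 1, any 1 of the bFGF/BMP4 libraries, or BMP4 replicate 1 or 3. Relative to the median member, Rps27l (0.57, adjusted p = 0.0055) and Rpl41 (0.62, adjusted p = 0.0138) were higher and Rpl13 (−0.43, adjusted p = 0.00991) was lower in BMP4-treated NSCs, against 11.9% and 3.81% of all tested genes. Rpl41, the shortest ribosomal protein, stood at 489, 694 and 424 FPKM with bFGF/EGF, at 221, 151 and 196 FPKM with bFGF/BMP4 and at 208, 357 and 209 FPKM with BMP4.

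Ribosomal components outside the name rule were also lower. The background in the comparisons with bFGF/EGF was 23.6% and 25.3% of all tested genes lower and 25% and 29.6% higher. Of 8 tested, 7 were lower and 0 higher in each comparison with bFGF/EGF (medians −1.47 and −1.49), and Rpl36al was not called. Rps3a1, a small-subunit protein, stood at 944, 1013 and 788 FPKM, at 287, 300 and 323 FPKM and at 197, 354 and 250 FPKM. Rack1, a scaffold on the small subunit, changed by −1.72 and −2.08, and Rps27rt by −2.75 in bFGF/BMP4-treated NSCs. Of the 28 other TOP mRNAs, mainly translation factors, 26 and 25 were lower and 1 was higher in each comparison, with medians of −1.03 and −1.14. Eef1a1, which brings aminoacyl-tRNA to the ribosome, changed by −1.07 and −1.56, the RNA-binding protein Hnrnpa1 by −1.89 and −2.25, the histone chaperone Nap1l1 by −1.96 in BMP4-treated NSCs, and Eif4a2, a helicase paralog of the initiation complex, rose by 0.81 and 1.07. Vim, an intermediate filament gene with a TOP tract, fell by 2.02 in bFGF/BMP4-treated NSCs and was 2.42 higher in BMP4- than in bFGF/BMP4-treated NSCs.

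The machinery that makes ribosomes was lower as well, beside the same background of 23.6% and 25.3% of all tested genes lower and 25% and 29.6% higher. Of 76 genes for ribosomal RNA processing and subunit assembly, 69 were lower and 0 higher in bFGF/BMP4-treated NSCs and 65 lower and 1 higher in BMP4-treated NSCs (medians −1.17 and −1.20). Fbl, the methyltransferase of box C/D snoRNPs, stood at 37.6, 45.7 and 35.6 FPKM, at 6.24, 7.40 and 8.90 FPKM and at 6.76, 8.57 and 6.99 FPKM, and Rrp1b, a nucleolar processing factor, changed by −2.45 and −2.46. Of 21 genes of RNA polymerase I and its factors, 15 and 14 were lower and 0 and 2 higher, led by the catalytic subunits Polr1a (−1.62 and −2.17) and Polr1b (−1.38 and −1.76). Of 17 chaperones and importers of ribosomal proteins, 11 and 13 were lower and 0 higher, led by Grwd1, a chaperone of Rpl3 (−2.27 and −2.44), and of 13 snoRNA host genes 10 and 10 were lower and 0 and 2 higher, led by Snhg6 (−1.85 and −2.42) and Snhg5 (−1.78 and −1.75).

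Of 40 genes of the mTORC1 and S6 kinase pathway, which senses growth signals, 6 and 8 were higher (15% and 20%, against 25% and 29.6% of all tested genes) and 10 and 14 lower (25% and 35%, against 23.6% and 25.3%), with medians of −0.04 and −0.08. Eif4ebp1, a translation repressor inhibited by mTORC1, stood at 26.9, 39.02 and 31.4 FPKM, at 8.45, 4.93 and 4.43 FPKM and at 5.02, 7.06 and 4.61 FPKM. Castor2, an arginine sensor relative, was higher by 1.96 and 1.84. Of 12 candidate transcription factors of ribosomal protein genes, 7 were lower and 0 higher in each comparison, and Myc, a driver of ribosome biogenesis, stood at 62.0, 69.1 and 41.2 FPKM, at 3.64, 5.28 and 8.66 FPKM and at 5.71, 5.66 and 4.51 FPKM. Its log2 fold changes were −3.33 and −3.39 (SE 0.29). Of 16 genes of ribosome surveillance and hibernation, 3 and 3 were higher (18.8% each, below the share of all tested genes) and 7 and 9 lower (43.8% and 56.2%). Among them, Larp6, which binds collagen mRNAs, changed by −1.66 and −1.95 and Habp4, which binds idle ribosomes, by 0.75 and 1.502.

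The mitochondrial ribosome, which translates mRNAs of the mitochondrial genome, is built from other proteins. Of its 82 tested genes, 31 and 31 were lower and 1 and 4 higher, with medians of −0.39 and −0.21, and the share lower (31 of 82) stands beside a background of 23.6% and 25.3%. Of its small-subunit proteins, Mrps18b changed by −1.62 and −1.51, and Mrps6 was higher by 1.56 in BMP4-treated NSCs. Between BMP4- and bFGF/BMP4-treated NSCs, of the 234 tested genes in the lists above other than the mitochondrial ribosome, 14 were higher (5.98%, against 12.2% of all tested genes) and 13 lower (5.56%, against 8.89%), and these counts fell to 6 and 2 without bFGF/BMP4 replicate 2. Mrps6 (2.12), Mycn (1.30, SE 0.17) and the S6 kinase relatives Rps6ka2 (0.93) and Rps6ka1 (0.85) were higher and Atf4, a factor of the stress response (−0.76), the importin Ipo9 (−0.65) and Snhg6 (−0.58) lower in BMP4-treated NSCs.

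**Figure D5:**
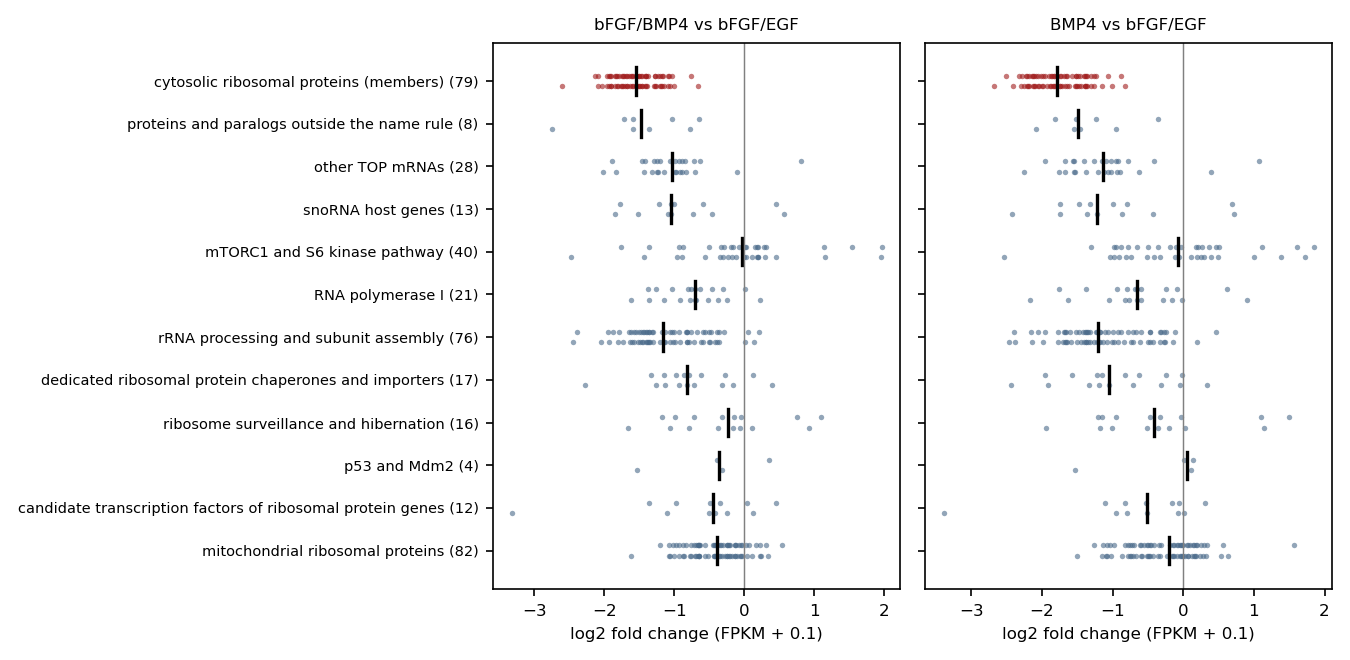
Log2 fold change (x axis, FPKM + 0.1) of each tested gene (points) in the members and in 11 lists of related genes, with the number of genes in parentheses and a bar for the median, in bFGF/BMP4- (left) and BMP4- (right) against bFGF/EGF-treated NSCs. The members lie farthest to the left as a group (medians −1.55 and −1.78), ribosomal RNA processing genes at −1.17 and −1.20, and the mTORC1 and S6 kinase pathway near 0.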

How the data were processed

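Bulk RNA-seq of 9 libraries was used. Per the submitters' processing notes, fastp 0.19.7, HISAT2 2.0.5 and featureCounts 1.5.0-p3 were used with the build mm39. The authors deposited FPKM values for each library, and the annotation release, strand setting and handling of multimapping fragments are not given in the sources used here. Symbols and genes came from GENCODE mouse release M39, in which 54749 of 55414 Ensembl identifiers were found. Differential expression was tested with limma 3.58.1 (R 4.3.3, trend) on log2(FPKM + 0.1) in place of the count test of the study, for 20207 genes with a mean of at least 0.1 FPKM, with 9 libraries in the fit, Benjamini-Hochberg adjustment over all tested genes and an adjusted p of at most 0.05 without a fold threshold. A fold change on this scale understates the change of low genes. Whole fragment numbers were rebuilt from the FPKM values for all 30860 genes above 0 and gave 15892854 to 17419822 fragments on genes per library. They were used for shares and for limma-voom as an alternative. Near-identical copies were found with minimap2 2.31-r1302. The fit was tested on simulated data, in which genes were drawn independently. The simulation held no shift shared by the members of a library, so it does not cover that feature of the data.

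The members and lists were chosen with earlier results of these data known. Named were members of set roles, the 5 largest and 5 smallest falls, the 2 smallest differences, the 3 highest and 3 lowest levels of each subunit, members near the limit of 1 FPKM, and called genes with the largest change in each list. Rps2, Rps15, Rpl36 and Rps28 come from the levels. Rpl7a, Rpl4, Eef1a1 and the copies of Rps27, Rps10, Rpl21, Rpl17, Rps18 and Rps27a were named after their values were seen. Some genes of the lists are not reported by name here. Alternatives were a pseudocount of 1, other filters, TPM, median-ratio and quantile scaling, scaling to other genes, limma-voom, a replicate block, only the compared groups, stricter thresholds and each library left out. Versions of the other tools were Python 3.11.15, pandas 2.3.3, numpy 2.4.6, scipy 1.17.1 and matplotlib 3.10.9.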

Additional observations from a re-analysis of the deposited data

How the results depend on the processing

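With 3 libraries a group, the falls against bFGF/EGF-treated NSCs kept their direction in every alternative run: 75 to 79 members were lower in bFGF/BMP4- and 76 to 79 in BMP4-treated NSCs, and 0 were higher. Of 1440 recomputed single-member results, 1380 kept their direction and call, 12 lost the call (Rpl38 and Rpl13), 30 gained it and 18 changed sign. The sign changes were in 8 members, none of them called, in BMP4- against bFGF/BMP4-treated NSCs. Leaving out a library gave −0.36 to 0.077 for Rplp1, −0.35 to 0.0078 for Rps19, −0.29 to 0.097 for Rpl11, −0.18 to 0.016 for Rpl22, −0.27 to 0.053 for Rpl7, −0.098 to 0.17 for Rpl24 and −0.20 to 0.14 for Rpl9. Median-ratio scaling gave 0.0066 for Rpl24 and 0.0028 for Rpl9, limma-voom 0.019 and 0.015, and quantile normalization −0.0033 for Rps4l. Rps27 in bFGF/BMP4-treated NSCs passed the test with limma-voom (−0.77, adjusted p = 0.0291) and with the replicate block (adjusted p = 0.0236). Leaving out each library in turn gave 78 to 78, 78 to 79 and 1 to 12 members lower in the 3 comparisons, with medians from −1.68 to −1.41, −1.99 to −1.66 and −0.42 to −0.08, and shares from 7.47% to 8.31%, 2.72% to 2.78% and 2.09% to 2.46%.

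The count of 2 members lower in BMP4- against bFGF/BMP4-treated NSCs became 10 on the TPM scale and 21 with quantile normalization. It became 11 with scaling to genes that are neither members nor mitochondrial and 4 with limma-voom. Of all tested genes, 10.1%, 11.1%, 10.4% and 9.29% were lower in the same order, against 8.89% in the main fit. The count of members became 1 without a filter and 0 at a fold of 2 or at an adjusted p of 0.01. It became 31 without bFGF/EGF replicate 3 and BMP4 replicate 2, which also moved the median of BMP4- against bFGF/EGF-treated NSCs to −2.12. The direction of this move was fixed in advance by the member levels of the libraries left out. In the lists, 13 genes lower in that comparison became 21 on the TPM scale, 23 with quantile normalization, 25 with scaling to other genes and 7 with the replicate block, and 2 to 15 with a library left out, and 14 genes higher became 9 without those 2 libraries and 6 to 16 with 1 library left out. The cause was not tested. Shares by fragments were 3.83%, 1.20% and 1.07%, and without mitochondrial genes the share in bFGF/BMP4-treated NSCs was 3.06%. With a pseudocount of 1 the ratio of Rps4l to Rps4x changed by −0.48 and −0.066, and that of Rpl3l to Rpl3 by 1.93 and 2.23. The median of all tested genes in BMP4- against bFGF/EGF-treated NSCs ran from −0.04 with quantile normalization to 0.12 with median-ratio scaling. Correlations of same-numbered deviations over all tested genes ran from −0.08 to 0.13 over 9 pairs. Over the members alone they ran from −0.55 to 0.61. With 3 libraries a group, these values cannot settle whether replicate numbers pair the samples. The block gave 79, 79 and 3 members lower.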
